A study of Rattus norvegicus with 36 samples.

Results

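The comparison described here is overload with G3-1, a titanium dioxide particle, against its own control, in cultured alveolar macrophages taken from male F344 rats. Its members are the 6 libraries that the labels name G3-1 overload and G3-1 control, 3 of each, out of 36 libraries in the series, and the readout is RNA sequencing across all 14606 genes tested. The cells were kept in culture and exposed for 4 days to one of 3 conditions, control, non-overload or overload, and all G3-1 groups had the same culture. The other particles were G1-1 and Bayertitan, which are also titanium dioxide, and Printex90, a carbon black, each with its own 3 control and 3 overload libraries. The amount of particle in each condition, and what the control cultures received, is not stated in the labels. The labels call the samples biological replicates but do not say whether they came from separate animals or cultures, and the p-values reflect only how these libraries vary, which could be technical.

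Alveolar macrophages are the phagocytes of the air spaces, where they engulf inhaled particles and keep them in lysosomes. In rats, a high burden of poorly soluble particles in these cells slows the clearance of particles from the lung, a state known as overload. Macrophages under load are known to change genes of lysosomal digestion, tissue remodelling and energy supply. Oxygen sensing is one route to the last of these: the prolyl hydroxylase encoded by Egln1 marks hypoxia-inducible factor for destruction, and Egln1 is itself a target of that factor.

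The libraries held 30.9 to 43.2 M counts. Defining genes of alveolar macrophages were present in all 6, with Pparg, a transcription factor of these cells, between 58.8 and 78.7 CPM, counts after scaling for library size, and Mrc1, a mannose receptor, between 925 and 1173 CPM. Marco, a scavenger receptor of macrophages, was between 0.161 and 0.375 CPM. Replicates 1 and 2 of both groups stood apart by fibroblast genes. Col3a1, a collagen gene, was at 31.2 and 110 CPM in control replicates 1 and 2 and at 35.5 and 31.4 CPM in overload replicates 1 and 2. It was at 0.0322 and 0.0232 CPM in control and overload replicate 3. The summed level of the 10 fibroblast markers was 257, 662 and 64 CPM in control and 328, 199 and 66.3 CPM in overload, so the groups overlapped. Summed epithelial markers were 2508, 2361 and 1917 CPM in control and 2339, 1835 and 1902 CPM in overload, and basal epithelial markers 335, 310 and 231 against 239, 206 and 178 CPM. In bulk RNA, fewer cells of a type and less RNA per cell cannot be told apart. Results are therefore given with and without a term for the fibroblast level, and within the replicates high and low in Col3a1.

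Overload with G3-1 changed a small share of the genes, mostly upward and by less than 1.5-fold. The quasi-likelihood test of edgeR, adjusted by Benjamini-Hochberg, called 83 of 14606 genes at an adjusted p under 0.05, which is 0.568%. Of these, 76 rose (0.52%) and 7 fell (0.0479%). The fold changes of the 76 ran from 0.19 to 1.12 on the log2 scale with a median of 0.36, against a median of -0.01 for all genes tested. At least 1.5-fold changes were reached by 9 rising genes and 1 falling gene, and 2-fold changes by 1 of each. All 83 had groups that did not overlap, as did 905 genes that were higher (6.2%) and 796 that were lower (5.45%) among all those tested. An unadjusted p under 0.05 was given to 1817 genes. Non-overload against the same control called 0 genes (0%), with 802 at an unadjusted p under 0.05 and 14 called by DESeq2.

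The calls rested on a spread shared with the other groups of the series. Between replicates of a group, chi-square per degree of freedom measured differences beyond sampling noise. It was 12.5 to 35.7 in G3-1 control and 18.6 to 37.2 in G3-1 overload, against 5.3 to 7.54 in G3-1 non-overload. A shared spread below that of the compared libraries would make the SEs and adjusted p-values too small, which was not tested. With the 9 G3-1 libraries fitted alone, edgeR called 1 gene, LOC100912498, and none of the 83. The groups of all 83 do not overlap, so their sign in any subset of these libraries is fixed by that choice. Within replicates 1 and 2, which are high in Col3a1, 14 genes were called, 13 of them among the 83. Within replicate 3 alone, with 1 library on each side and the spread of the other groups, edgeR called 0, with 1013 genes at an unadjusted p under 0.05. Without control replicate 1 there were 32 calls, without control replicate 2 there were 33, and without overload replicate 3 there were 26. Without control replicate 3, a library low in Col3a1, the count was 233. Leaving out overload replicate 3 of G1-1, which is in the fit for its spread only, gave 149 calls. In all 6 fits with 1 of these libraries left out, 17 of the 83 genes stayed called: Cmklr1, Pcp4, Rhoh, Nav1, Mmp8, Acod1, Slc7a2, Enpp3, Il1rl2, Emilin2, Ankdd1a, Fmo5, Gstp1, Pld1, Adgb, Sema6b and Sh2d3c.

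**Figure D1:**
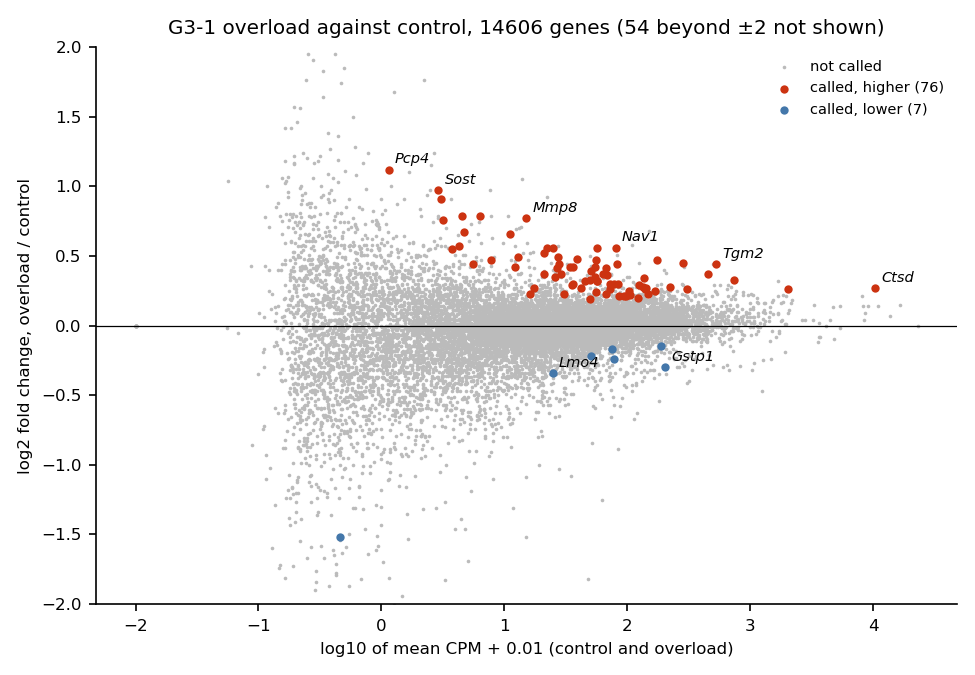
Log2 fold change of G3-1 overload over control (vertical axis) against the log10 mean level in CPM (horizontal axis) of each gene tested. The 76 rising genes called (red) and 7 falling genes called (blue) lie mostly within 1.5-fold of no change, and 54 genes beyond the vertical range are not shown.

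The matrix-degrading proteases Mmp8 and Mmp10 and the lysosomal protease Ctsd were among the called genes. Of the lists, 1 of 35 lysosomal genes and 1 of 27 remodelling genes were called, beside 0.568% of all genes. Mmp8, a collagenase that cleaves fibrillar collagens, was at 11, 10.8 and 11.5 CPM in control, 11.3, 11.3 and 13.3 CPM in non-overload and 15.1, 21.4 and 20.5 CPM in overload. Every overload library lay above every control and non-overload library, and the log2 fold change was 0.77 (SE 0.11, edgeR adjusted p = 0.000236). It was 0.74 within replicates 1 and 2 and 0.84 within replicate 3. Mmp8 is also known as neutrophil collagenase. The summed level of the 10 neutrophil markers was 173, 152 and 186 CPM in control and 197, 210 and 214 CPM in overload, which do not overlap. Most of it was Cxcr1, and S100a9, a defining neutrophil gene, lay between 0.051 and 0.26 CPM in the 6 libraries. The part of neutrophil transcripts in the Mmp8 result was not tested. Mmp10, a stromelysin, was at 8.42, 8.85 and 8.43 CPM in control and 14.9, 12.4 and 13.2 CPM in overload. Its change of 0.66 (SE 0.16, adjusted p = 0.0468) was called in 1 of the 6 fits with a library left out, that without overload replicate 2, and ran from 0.58 to 0.72 over all 6. Ctsd, the lysosomal aspartyl protease cathepsin D, was at 9231, 8635 and 10207 CPM in control, 10292, 9871 and 10292 CPM in non-overload and 10485, 10976 and 12498 CPM in overload. It rose by 0.27 (SE 0.06, adjusted p = 0.0358) and lost its call without control replicate 1, control replicate 2 or overload replicate 3, with values between 0.20 and 0.35.

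Single receptor genes were also among the called genes. In the receptor lists 0 of 20 scavenger receptors, 0 of 15 Toll-like receptors and adaptors and 1 of 13 chemoattractant and growth factor receptors were called. Beside the 0.568% called over all genes, a count of 0 in lists this small does not show that a receptor class was unchanged. Siglec1, the sialic-acid receptor CD169 of resident macrophages, was at 225, 214 and 287 CPM in control, 314, 278 and 283 CPM in non-overload and 307, 301 and 380 CPM in overload. In both groups replicate 3 was the highest library, and the log2 change of 0.45 (SE 0.10, adjusted p = 0.0312) ran from 0.33 to 0.59 with a library left out and lost its call without control replicate 1 or 2 or overload replicate 3. Il1rl2, the receptor for interleukin-36, was at 10, 11 and 10.1 CPM in control, 11.5, 10.6 and 11.5 CPM in non-overload and 13.8, 14 and 13.7 CPM in overload, a rise of 0.42 (SE 0.06, adjusted p = 0.00106). Cxcr4, the receptor for the chemokine CXCL12, was at 67.4, 70.9 and 72.8 CPM in control and 104, 91.9 and 91.1 CPM in overload. Its groups were well apart, with a change of 0.44 (SE 0.09, adjusted p = 0.0153), and the call was lost without control replicate 1 or overload replicate 1 (lowest value 0.38). Fcrlb, an Fc receptor-like gene, was at 2.65, 1.93 and 2.48 CPM in control and 4.1, 3.92 and 3.94 CPM in overload, a change of 0.76 (SE 0.14, adjusted p = 0.00483) that lost its call without control replicate 2. Cmklr1, the receptor for the chemoattractant chemerin, was picked here after its values were seen. It was at 11.6, 10.2 and 10.7 CPM in control, 12.2, 12 and 11.6 CPM in non-overload and 15.3, 15.6 and 14.7 CPM in overload. It rose by 0.49 (SE 0.06, adjusted p = 0.000155) and stayed between 0.45 and 0.55 with a library left out.

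Single enzymes and transporters were called as well. Called members of the metabolic lists were 1 of 11 for fatty acid synthesis, 0 of 25 for cholesterol synthesis and 0 of 15 for lipid efflux. Of all genes 0.568% were called, and at that share a count of 0 in lists of this size is no result about the list. Slc7a2, an arginine transporter that belongs to the alveolar macrophage identity list, was at 145, 152 and 145 CPM in control, 192, 185 and 158 CPM in non-overload and 224, 194 and 196 CPM in overload, a change of 0.47 (SE 0.09, adjusted p = 0.0063). Tgm2, tissue transglutaminase, a crosslinking enzyme and marker of alternative activation, was at 440, 454 and 446 CPM in control, 568, 562 and 522 CPM in non-overload and 637, 549 and 632 CPM in overload. The change was 0.44 (SE 0.08, adjusted p = 0.00893), and the call was lost without overload replicate 3. Scd2, a stearoyl-CoA desaturase that makes monounsaturated fatty acids, was at 622, 679 and 672 CPM in control and 942, 768 and 769 CPM in overload. Overload replicate 1 was the highest library and the change was 0.33 (SE 0.08, adjusted p = 0.0378), with no call left without control replicate 1 or 2 or overload replicate 1. Mgll, the lipase that splits monoacylglycerols, was at 122, 110 and 133 CPM in control and 142, 152 and 169 CPM in overload, with a change of 0.34 (SE 0.08, adjusted p = 0.0352) that lost its call without control replicate 1 or 2 or overload replicate 2 or 3, at 0.28 to 0.42. Psat1, an enzyme of serine synthesis, was at 121, 124 and 121 CPM in control, 149, 148 and 132 CPM in non-overload and 146, 148 and 151 CPM in overload. It rose by 0.28 (SE 0.06, adjusted p = 0.0193) and lost its call without control replicate 1 or overload replicate 3. Acod1, which makes itaconate from the citric acid cycle, was picked after its values were seen, and was at 44.1, 50.3 and 42.5 CPM in control, 56.5, 57.3 and 53.6 CPM in non-overload and 68.2, 67.7 and 65.9 CPM in overload. Its groups were far apart for their spread, with a change of 0.56 (SE 0.10, adjusted p = 0.00451).

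**Figure D2:**
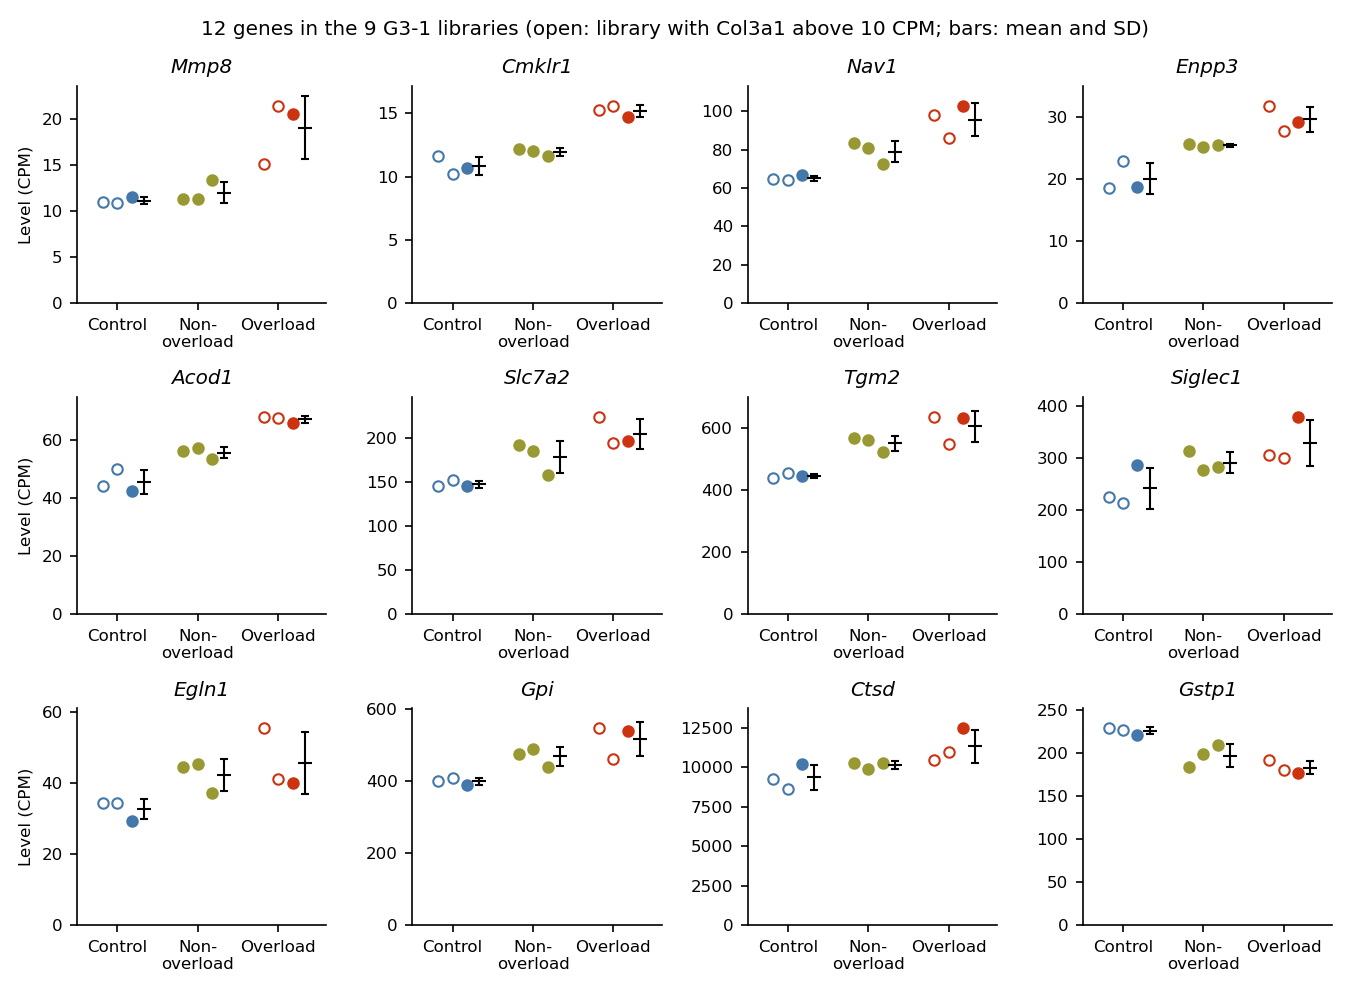
Levels in CPM (vertical axes, from 0) of 12 genes in the 9 G3-1 libraries by condition. Open symbols are libraries with Col3a1 above 10 CPM and bars are the mean and SD of 3 libraries: each overload library lay above each control library for 11 of the genes, and below for Gstp1.

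Genes of oxygen sensing and glycolysis were mostly at higher levels in overload, and 3 passed the test. Of 34 members of the hypoxia and glycolysis list tested, 3 were called, all of them higher, which is read against 0.52% over all genes. The median log2 fold change of the list was 0.28 and 32 of the 34 were above 0. For 13 of them the overload libraries all lay above the control libraries, as did 6.2% of all genes. For most members overload replicate 1 was the highest library. Several members were also higher in non-overload than in control, though no gene was called there. In control, non-overload and overload, mean Hk2 was 428, 536 and 579 CPM and mean Ldha 942, 1098 and 1108 CPM. Mean Pfkfb4 was 29.1, 27.8 and 29.9 CPM. For Ddit4 and Vegfa the non-overload mean was above that of overload. Slc2a1 was at 253, 270 and 226 CPM in control and 418, 285 and 299 CPM in overload. Its non-overload libraries were at 307, 352 and 260 CPM. Egln3 was at 5.51, 8.39 and 3.09 CPM in control and 16.6, 6.09 and 6.81 CPM in overload, so its groups overlapped. In non-overload, Egln3 was at 7.96, 10.6 and 6.89 CPM. Gpi, an enzyme of glycolysis, was at 401, 408 and 388 CPM in control, 476, 490 and 440 CPM in non-overload and 548, 462 and 539 CPM in overload, a change of 0.37 (SE 0.07, adjusted p = 0.0111) lost without overload replicate 3. Egln1, the oxygen sensor, was at 34.3, 34.4 and 29.3 CPM in control, 44.4, 45.3 and 37.2 CPM in non-overload and 55.6, 41.1 and 40.1 CPM in overload. Overload replicate 1 was the highest library. The change was 0.48 (SE 0.11, adjusted p = 0.0411) and ran from 0.32 to 0.57 with a library left out, with the call lost without any control or without overload replicate 1. P4ha1, a subunit of collagen prolyl hydroxylase, was at 126, 136 and 115 CPM in control and 163, 145 and 145 CPM in overload, a change of 0.26 (SE 0.05, adjusted p = 0.0141) lost without overload replicate 1. Ak4, a mitochondrial adenylate kinase, is not in the list and was picked after its values were seen. It was at 30.2, 29.7 and 28.3 CPM in control and 43.2, 34.7 and 40.1 CPM in overload, with a change of 0.42 (SE 0.08, adjusted p = 0.00893) lost without overload replicate 3 (0.35). Pdk1, which restrains the use of pyruvate by mitochondria, was at 44.5, 50.3 and 35.9 CPM in control and 67.5, 53.9 and 55 CPM in overload. In non-overload it was at 58, 58.5 and 51.4 CPM. Its change of 0.43 and those of Hk2, the first enzyme of glycolysis, at 0.44 and Pfkfb3 at 0.40 missed the threshold (adjusted p = 0.077, 0.0731 and 0.0966).

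Promoter sequences from RefSeq (GRCr8 build, 250 bases before each start, 5′ to 3′ on the gene's strand) are shown for the called oxygen-related genes that hold a hypoxia core, and for Ctsd and Bhlhe40 as a lysosomal and a transcription factor gene with an E-box. Capitals mark the hypoxia core in its forms GCGTG or, in other genes, ACGTG, and the E-box CACGTG. Both strands were searched, so the opposite strand shows as CACGC for the first form and as CACGT for the second form. The E-box contains the second form on each strand.
Egln1 (chr19:69804682-69804931, minus strand): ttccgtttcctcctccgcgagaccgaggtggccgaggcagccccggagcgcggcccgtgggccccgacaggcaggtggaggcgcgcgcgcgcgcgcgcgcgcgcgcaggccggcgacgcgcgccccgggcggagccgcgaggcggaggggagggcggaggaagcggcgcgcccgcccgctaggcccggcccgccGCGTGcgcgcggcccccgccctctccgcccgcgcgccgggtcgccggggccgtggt
P4ha1 (chr20:27844796-27845045, plus strand): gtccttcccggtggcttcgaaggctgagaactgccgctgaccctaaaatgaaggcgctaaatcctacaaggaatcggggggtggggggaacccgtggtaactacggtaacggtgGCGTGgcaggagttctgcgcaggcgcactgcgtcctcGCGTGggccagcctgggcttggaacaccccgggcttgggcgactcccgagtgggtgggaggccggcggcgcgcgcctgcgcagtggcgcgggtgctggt
Ak4 (chr5:121154886-121155135, plus strand): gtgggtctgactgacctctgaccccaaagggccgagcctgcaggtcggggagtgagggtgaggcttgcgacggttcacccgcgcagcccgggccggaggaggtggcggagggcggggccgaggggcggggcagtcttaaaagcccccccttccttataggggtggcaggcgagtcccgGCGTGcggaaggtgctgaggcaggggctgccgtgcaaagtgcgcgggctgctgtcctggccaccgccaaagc
Ctsd (chr1:206968822-206969071, minus strand): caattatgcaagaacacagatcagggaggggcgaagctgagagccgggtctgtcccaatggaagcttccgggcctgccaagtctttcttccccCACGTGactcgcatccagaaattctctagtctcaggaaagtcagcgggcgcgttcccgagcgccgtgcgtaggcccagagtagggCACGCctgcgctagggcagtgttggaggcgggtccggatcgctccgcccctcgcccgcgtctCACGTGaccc
Bhlhe40 (chr4:143174200-143174449, plus strand): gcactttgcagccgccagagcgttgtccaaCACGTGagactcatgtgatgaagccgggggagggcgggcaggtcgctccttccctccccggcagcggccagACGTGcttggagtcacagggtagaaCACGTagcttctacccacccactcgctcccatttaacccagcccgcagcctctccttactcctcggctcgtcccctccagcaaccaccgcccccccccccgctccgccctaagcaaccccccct
Egln1, Ak4 and Ctsd hold the motif GCGTG at 1 place, P4ha1 at 2 places and Bhlhe40 not at all. The E-box is at 2 places in Ctsd and at 1 in Bhlhe40. Windows were found for 66 of the 83 called genes, with 81 windows since some genes have several. Of these 81, the first form GCGTG was in 45.7%, the second form in 22.2% and the E-box in 7.41%. Over all 33469 windows of the same length the shares were 25.9%, 16.6% and 5.59%. These windows belong to 27457 symbols, including genes that were not tested here, while the called genes come from the tested genes only. The shares are therefore not like for like, and enrichment of a motif was not tested. For the hypoxia and glycolysis list, 39 windows gave 46.2%, 41% and 12.8%.

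Of the 21 alveolar macrophage identity genes tested, 4 rose and none fell, read against 0.52% and 0.0479% over all genes. Bhlhe40, a repressor of circadian and metabolic genes, was at 277, 281 and 274 CPM in control, 322, 327 and 307 CPM in non-overload and 348, 303 and 343 CPM in overload, a change of 0.26 (SE 0.06, adjusted p = 0.0288). Maf was at 71.8, 70.3 and 83.3 CPM in control and 85.5, 91.9 and 99.7 CPM in overload, a change of 0.30 (SE 0.07, adjusted p = 0.0384). Both lost their call without control replicate 1 or 2 or overload replicate 3, Bhlhe40 also without overload replicate 1 and Maf without overload replicate 2, at 0.22 to 0.32 and 0.24 to 0.38. The other 2 identity genes that rose were Slc7a2 and Siglec1, and the median of the list was 0.12. Its summed level was 4930, 4811 and 5571 CPM in control and 5284, 5665 and 5858 CPM in overload, which overlap.

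The largest fold changes belonged to genes of low level. Pcp4, which binds calmodulin, was at 0.74, 0.751 and 0.644 CPM in control, 1.09, 1.05 and 0.937 CPM in non-overload and 1.7, 1.56 and 1.41 CPM in overload, a change of 1.12 (SE 0.22, adjusted p = 0.00893). Sost, the Wnt inhibitor sclerostin, was at 1.91, 2.09 and 1.87 CPM in control and 3.61, 3.2 and 4.71 CPM in overload (log2 0.97, SE 0.21, adjusted p = 0.0213). Dlec1 rose by 0.91 (adjusted p = 0.00719), Ankdd1a by 0.79 (0.00297), Tspan10, a tetraspanin, by 0.67 (0.0313), Piwil4, of the Piwi family, by 0.57 (0.0124) and Enpp3, an ectonucleotidase, by 0.56 (0.00106). Sost lost its call without control replicate 1 or 2 or overload replicate 3, and Tspan10 without these or overload replicate 2, at 0.80 to 1.09 and 0.61 to 0.75. Dlec1 lost it without control replicate 1, at 0.78 or above, and Piwil4 without control replicate 1 or 2, at 0.53 or above. Enpp3 was at 18.6, 22.9 and 18.7 CPM in control and 31.8, 27.8 and 29.2 CPM in overload. Nav1, picked after its values were seen, had the lowest adjusted p together with Cmklr1 and Sh2d3c. It was at 64.5, 64.4 and 66.7 CPM in control, 83.3, 81 and 72.7 CPM in non-overload and 97.9, 86.4 and 103 CPM in overload (log2 0.56, SE 0.07, adjusted p = 0.000155).

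Few genes fell. Gstp1, a glutathione transferase that detoxifies electrophiles, was at 229, 226 and 221 CPM in control, 183, 198 and 209 CPM in non-overload and 191, 180 and 177 CPM in overload, and fell by 0.30 on the log2 scale (SE 0.05, adjusted p = 0.000796). This was the only fall that stayed called in all 6 fits with a library left out. Lmo4, a LIM-domain protein, fell by 0.34 (adjusted p = 0.0395), Rcan1, an inhibitor of calcineurin, by 0.24 (0.044), Ccnyl1 by 0.22 (0.0447), Slc39a7, a zinc transporter, by 0.17 (0.0244) and Ppa1, a pyrophosphatase, by 0.15 (0.0446). Rcan1 lost its call in all 6 fits with a library left out, at -0.27 to -0.23. Lmo4, Ccnyl1, Slc39a7 and Ppa1 were called in 2, 2, 3 and 1 of these fits, and each of the 4 lost its call without control replicate 2 or overload replicate 3. The falling gene of largest fold, AABR07071891.3, has no symbol and was below 1 CPM in all 6 libraries.

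Over the 29 pathway lists, 551 genes were tested and 14 were called higher, or 2.54%, and 0 lower, beside 0.52% and 0.0479% of all genes. Called members were found in 8 lists: 3 in hypoxia, 4 in identity, Tgm2 and Il1rl2 in alternative activation, and 1 each in the lysosome (Ctsd), fatty acid (Scd2), remodelling (Mmp8), ER stress (Psat1) and receptor (Cxcr4) lists. The other 21 lists had none. Median log2 fold changes were 0.14 for the 35 lysosomal genes, of which 34 were above 0, 0.08 for the 16 subunits of the vacuolar ATPase, 0.06 for the 31 interferon-stimulated genes and 0.11 for the 14 cytokines. They were -0.06 for MHC class II, -0.06 for heat shock and -0.03 for NRF2 targets. For 3 of the 35 lysosomal genes all overload libraries lay above all control libraries, as did 6.2% of all genes. With the fibroblast level in the fit the median of the lysosomal list was 0.10. Nucleolar ribosome biogenesis genes had a median of -0.15, with 0 of 20 above 0 and none called. Members that missed the threshold included Optn, an autophagy receptor, at 0.28 (adjusted p = 0.0563), Mmp14, a membrane metalloproteinase, at 0.22 (0.0595), Aurkb, a mitotic kinase, at 0.30 (0.0646), Hmox1, heme oxygenase, at 0.24 (0.113), Arg1, arginase, at 0.27 (0.131) and Ahr, the aryl hydrocarbon receptor, at -0.55 (0.171).

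**Figure D3:**
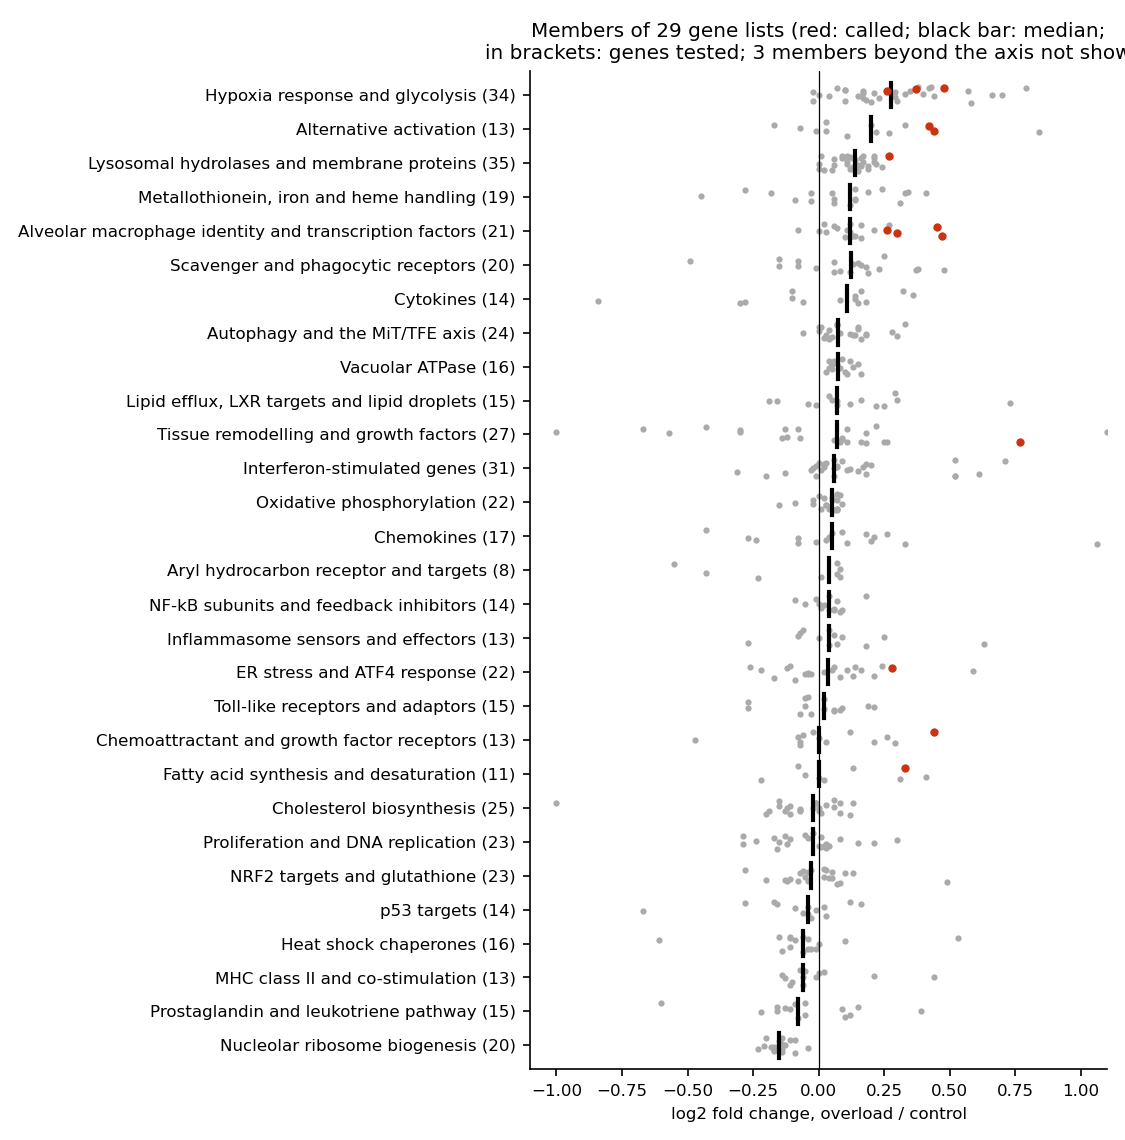
Log2 fold change (horizontal axis) of the tested members of 29 gene lists (rows, number tested in brackets). Red points are called and black bars are medians: the hypoxia and glycolysis list has the highest median, 0.28, and nucleolar ribosome biogenesis the lowest, -0.15.

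With the mean level of the fibroblast markers in the fit, 156 genes were called (1.07%), 138 higher (0.945%) and 18 lower (0.123%). All 83 genes remained called, and their fold changes moved by at most 0.05 on the log2 scale. Mmp8, for example, was at 0.73, Siglec1 at 0.41 (adjusted p = 0.00835), Ctsd at 0.24 (0.0029) and Egln1 at 0.51 (0.0104). Another 73 genes were called, 72 of them with the same sign in both fits. Of the 156, 136 had groups that did not overlap, beside 6.2% higher and 5.45% lower of all genes. The groups of Bnip3, Gaa and Rragd, named below, overlapped. The largest additions were Dkk2 (1.91 to 4.47), Nrxn3 (2.12 to 3.10), Npy1r (1.64 to 2.44) and Reln (0.79 to 2.41). Their groups also overlapped, and Dkk2, Nrxn3 and Npy1r were below 1 CPM in every control and overload library. Within the hypoxia list the called members rose from 3 to 8, with Pdk1 at 0.46 (adjusted p = 0.0298), Hk2 at 0.45 (0.0467), Bnip3, a mitophagy receptor, at 0.64 (0.0265), Pfkfb3 at 0.42 (0.0454) and Aldoa at 0.20 (0.0497). Further additions were Gaa, the lysosomal glucosidase, at 0.21 (0.0323), Optn at 0.25 (0.00714), Rragd, a lysosomal GTPase, at 0.27 (0.0267), Mmp14 at 0.21 (0.0414), Hmox1 at 0.21 (0.0467) and the chaperone Hsph1 at -0.15 (0.0267). Col1a1, which is part of the covariate, changed from -0.89 to 1.19. It was at 65, 260 and 0.772 CPM in control and 107, 68.7 and 0.719 CPM in overload. With the 9 G3-1 libraries alone and the same term, 80 genes were called. Without control replicate 3 there were 53, without overload replicate 1 there were 67, without overload replicate 3 there were 78, and without control replicates 2 and 1 there were 94 and 97.

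**Figure D4:**
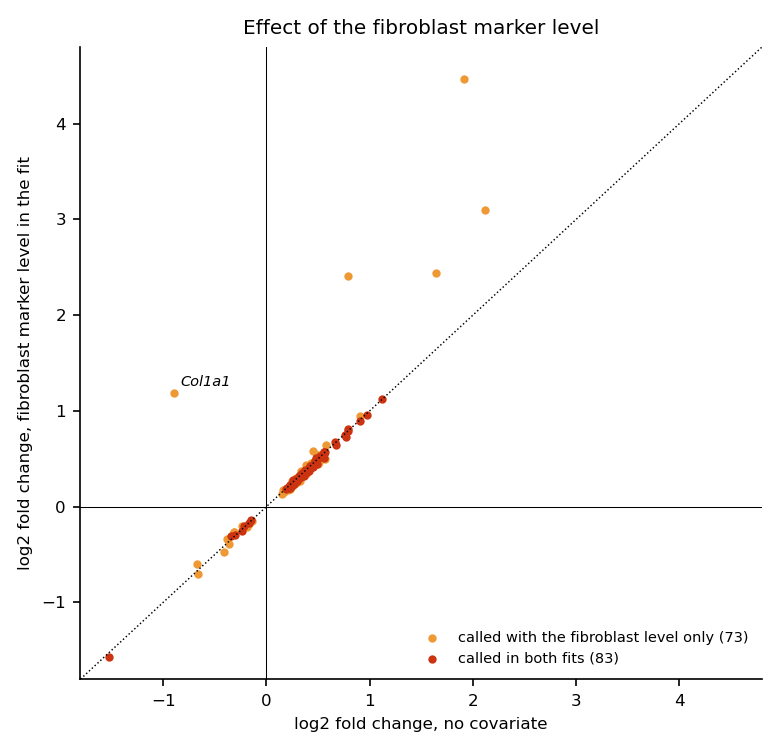
Log2 fold change without a covariate (horizontal axis) and with the fibroblast term (vertical axis) for the 156 genes called with it. The 83 genes called in both fits lie on the diagonal, and Col1a1 lies on opposite sides of 0 in the 2 fits.

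The genes that rose were set beside the other particles, each with its own control. In G1-1, 64 of the 76 were called higher and 2 lower, Tchh and Pstpip1, against 13.7% of all genes called higher and 14.4% lower. In Printex90, 64 were called higher and 1 lower, Adgb, against 7.45% and 7.31%. In Bayertitan, 14 were called higher and 0 lower, against 0.212% and 0.116%, and all 76 had a positive sign. The median of the 76 was 0.44 in G1-1, 0.43 in Printex90 and 0.22 in Bayertitan, beside 0.36 in G3-1, where they were chosen. Of the 7 that fell, 4, 3 and 1 were called lower in G1-1, Printex90 and Bayertitan, the last being Gstp1.

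Tests of the difference between overload responses gave 1355 genes for G3-1 against G1-1 (9.28%), 94 against Printex90 (0.644%) and 0 against Bayertitan (0%). For Bayertitan, 565 genes had an unadjusted p under 0.05 and DESeq2 called 7. Of the 83 genes, 21 differed from G1-1, 7 larger and 14 smaller in G3-1, and 7 differed from Printex90, 2 larger and 5 smaller. Mmp8 rose by 0.77 in G3-1, 1.42 in G1-1 and 1.88 in Printex90, where it went from 12.9 ± 1.12 to 47.2 ± 2.49 CPM (SD, n = 3). The difference between G3-1 and Printex90 was -1.10 (SE 0.15, edgeR adjusted p = 3.96e-05). Scd2 rose by 0.33 in G3-1 and 0.86 in Printex90, a difference of -0.53 (SE 0.11, adjusted p = 0.00842). Cyp1b1, a target of the aryl hydrocarbon receptor, was at 109 ± 17.4 CPM in G3-1 control and 80.7 ± 7.9 CPM in overload (SD, n = 3), and fell from 75.1 ± 17.8 to 1.65 ± 2.52 CPM in Printex90. The difference was 5.06 (SE 0.71, adjusted p = 6.27e-05), and Cyp1a1, a second target, differed by 5.48 (SE 0.81, adjusted p = 0.000119). Ptges, a prostaglandin E synthase, differed by 4.12 (SE 0.81, adjusted p = 0.00639). Against G1-1, Tlr1, a receptor for bacterial lipopeptides, differed by 2.60 (SE 0.49, adjusted p = 0.00066) and Fcrl2 by 2.03 (SE 0.27, adjusted p = 4.16e-06). Neither changed beyond the threshold in G3-1, at -0.27 and -0.19, and both fell in G1-1.

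**Figure D5:**
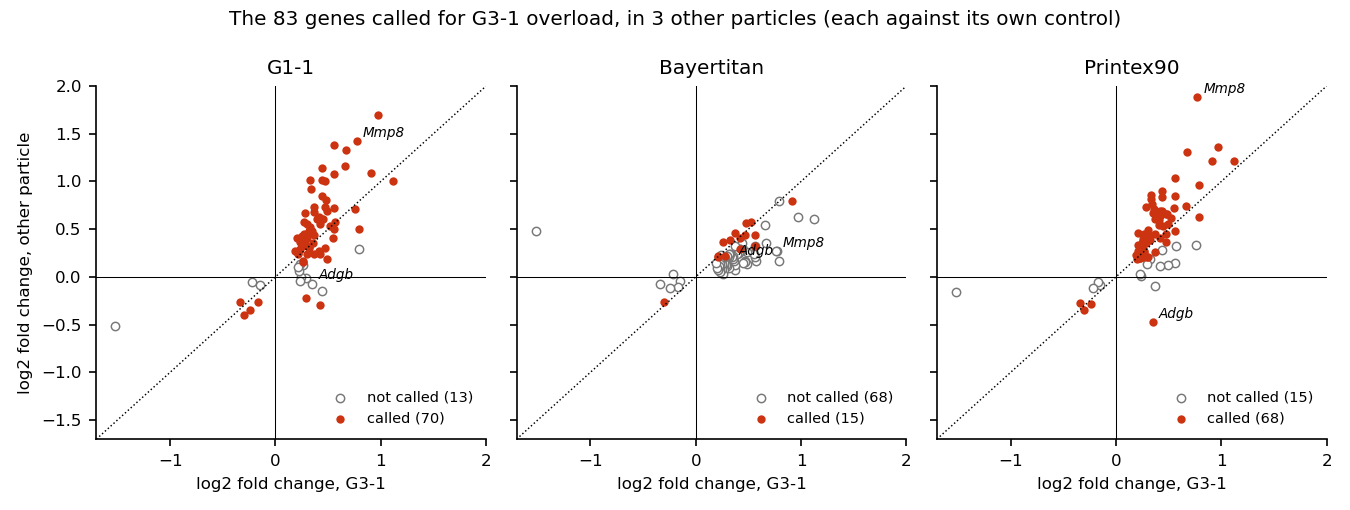
Log2 fold change of the 83 genes in G3-1 (horizontal axis) and in G1-1, Bayertitan or Printex90 (vertical axis), each against its own control, with the dotted line at equality and red for genes called in that particle. Of the 83, 70, 15 and 68 were called in the 3 particles in turn, and Mmp8 lies above the line in G1-1 and Printex90.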

How the data were processed

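RNA of primary rat alveolar macrophages was sequenced after ribosomal RNA depletion with the KAPA RNA HyperPrep kit, per the labels' protocols. The authors deposited expected counts per gene for 36 libraries, of which 30.5% of values had decimals. The submitters' processing notes name Salmon, FastQC, MultiQC and the genome build Rnor_6.0, without versions or settings. Reads of near-identical or overlapping genes can be split between them, so such values are uncertain.

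Counts were rounded and tested with edgeR 4.0.16 in R 4.3.3: TMM scaling, filterByExpr (minimum count 10, minimum total 15), then a quasi-likelihood model of the 36 libraries, 1 term for each of 12 groups, leaving 24 residual degrees of freedom. P-values were adjusted by Benjamini-Hochberg over 14606 genes and called under 0.05. Levels are CPM scaled by TMM, and errors of log2 fold changes are SE. The SE was derived from the test, as the absolute log2 fold change divided by the square root of the quasi-likelihood F statistic. The fibroblast term was the mean log2 CPM of 10 markers. DESeq2 1.42.0, other filters, scaling, libraries left out and a replicate block were alternatives. The fit was tested on simulated data with the same dispersion for every gene and no fibroblast differences between libraries. That test cannot show how well the calls hold at the spread of the G3-1 libraries. Total counts were 26.1 to 43.2 M, and the 9 replicate pairs within G3-1 groups differed beyond sampling noise, so none was counted as 1 library.

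The comparison, gene lists and rules were chosen with earlier results of these data known. Genes were named where they were the largest called changes each way with at least 1 CPM, or 100 CPM, and groups that did not overlap, the smallest p of each list, called list members, or the 3 largest differences each way between particles. Genes outside this rule were chosen after their values were seen. They include Acod1, Cmklr1, Nav1, Ak4, Ebi3, Vim, the genes listed as called in every fit with a library left out, those of opposite sign in another particle, and those named in the fit with the fibroblast term. Promoters are from RefSeq's GRCr8 table and matched by symbol.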

Additional observations from a re-analysis of the deposited data

Results flagged for a closer look

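The overload response of the 10 genes given first differed between G3-1 and G1-1 by edgeR's test of the difference (adjusted p under 0.05). Values are the log2 response in G3-1 minus that in G1-1. Mmp8 was at -0.64, Tspan10 at -0.66, Tgm2 at -0.41 and Mgll at -0.58, all genes that rose in both particles and rose less in G3-1. Tlr1 was at 2.60, Fcrl2 at 2.03 and Klrk1, an activating receptor, at 1.60, and these fell in G1-1 and did not pass the test in G3-1. Lum, a fibroblast gene, was at -10.81, but its level in G3-1 came from control replicate 2, at 9.79 CPM, and the other G3-1 control and overload libraries were at 0 to 0.0577 CPM. Mmp3, a stromelysin, was at -5.94, and reached 0.33 without G1-1 overload replicate 2, a library with Col3a1 at 17.6 CPM. Fzd7, a Wnt receptor, was at -1.28. Other genes named in this report also differed by this test. Among them, Nav1 was at -0.82, Cxcr4 at -0.70, Scd2 at -0.69, Psat1 at -0.38 and Ctsd at -0.30. Cmklr1 at 0.30 and Adgb at 0.43 were among those with the larger response in G3-1.

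Between G3-1 and Printex90, the 6 genes given first differed by the same test. Cyp1a1 was at 5.48, Cyp1b1 at 5.06 and Ptges at 4.12, all of which fell in Printex90. Mmp8 was at -1.10, Mcf2l at -0.81 and Scd2 at -0.53, which rose in Printex90. Other genes named in this report also differed, among them Adgb at 0.82, Emilin2 at 0.47, Nav1 at -0.48 and Psat1 at -0.45.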

How the results depend on the processing

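The 83 calls for overload against control became 208 with DESeq2, 126 with at least 1 CPM in 3 libraries, 156 with the fibroblast level, 216 with Col3a1 as the covariate, 1 with the 9 G3-1 libraries or the 6 compared alone, 14 with replicates 1 and 2 and 0 with replicate 3, and 26 to 233 with 1 G3-1 control or overload library left out. The range was 77 to 149 with a library of another group left out, a choice made after seeing the data. Same-numbered control and overload samples correlated at 0.22, 0.0993 and 0.542, and differently numbered ones at -0.522 to 0.468. With 1 of the same-numbered values under the threshold of 0.1, the main fit has no pairing. The check cannot decide whether the numbers pair the samples, since the fibroblast level also separates the replicates. A replicate block gave 109 calls in all libraries, with 76 of the 83 kept, and 1 in the 6 alone. With DESeq2's size factors there were 93 calls and with no filter 67. The 156 calls with the fibroblast level became 287 with DESeq2, 80 with the 9 libraries alone and 53 to 152 with a library left out. Non-overload had 0 calls, 14 with DESeq2, 1 with a replicate block and 1 in the 9 libraries alone. For G3-1 minus Bayertitan the count of 0 became 7 with DESeq2 and 1 without G3-1 overload replicate 3. For G3-1 minus Printex90, 94 became 184 with DESeq2, 187 with the fibroblast level and 155 with Col3a1. Mmp3 in G3-1 minus G1-1 turned from -5.94 to 0.33 without G1-1 overload replicate 2, and its other values with a library left out reached -9.17. The cause of these shifts was not tested.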

Other observations

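Further genes called for G3-1 overload, chosen after their values were seen, encode signalling and structural proteins. Ebi3, a subunit of the cytokines interleukin-27 and interleukin-35, was at 24.3, 21.7 and 22.8 CPM in control and 28.3, 32.1 and 36.4 CPM in overload, and rose by 0.49 on the log2 scale (SE 0.09, edgeR adjusted p = 0.00379). Vim, the intermediate filament vimentin, was at 1835, 1834 and 1912 CPM in control and 2187, 2134 and 2381 CPM in overload (log2 0.26, SE 0.06, adjusted p = 0.0203). It lost its call without control replicate 1 or 2 or overload replicate 3, at 0.22 to 0.30. Fibroblasts also express Vim, and with the fibroblast term in the edgeR fit its change was 0.25 (adjusted p = 0.0118). The part of fibroblasts in this change was not otherwise tested. Pld1, phospholipase D1, was at 198, 201 and 208 CPM in control and 254, 235 and 246 CPM in overload (log2 0.28, SE 0.05, adjusted p = 0.00321). Emilin2, an extracellular glycoprotein, was at 52.1, 55.2 and 60.2 CPM in control, 57.9, 55.2 and 58.4 CPM in non-overload and 68.8, 71.3 and 76.1 CPM in overload. Its change of 0.37 (SE 0.05, adjusted p = 0.000236) stayed between 0.33 and 0.43 with a library left out.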
